A study of Mus musculus with 16 samples.

Results

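The 41 genes described here serve DNA replication and nucleotide synthesis, and were taken from a list of G1/S and S phase symbols. All 41 were found among the 55359 gene IDs of the count files, and all 41 were among the 17531 genes tested. RNA of whole dorsal skin from male mice aged 8 weeks was sequenced in 4 groups of 4 libraries. KO UVB skin came from mice lacking both TNF receptors, Tnfrsf1a and Tnfrsf1b (TNFR1/2 double KO), and received a treatment labelled 3xUVB. WT UVB skin came from wild-type mice with the same treatment. KO control and WT control skin had no UVB. All groups were labelled telogen, the hair cycle stage in which follicles rest. The labels give no UVB dose, no time after UVB, and no statement of whether each library is from a separate mouse, so the p-values measure the spread between libraries. By its title, the study is about Tnf signalling and the behaviour of melanocyte stem cells after UVB.

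Before S phase, the origin recognition complex, Cdc6 and Cdt1 load the Mcm2 to Mcm7 ring onto DNA. Cyclin E kinase, Cdc45 and the GINS complex then turn the ring into a moving helicase, polymerases copy both strands behind it, and ribonucleotide reductase with thymidylate synthase supplies the deoxynucleotides. In skin these genes are known from dividing cells of the basal epidermis and of the growing hair follicle, and many are classical targets of E2F transcription factors.

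Libraries held 15644375 to 23200649 reads in genes, and 9170 to 21579 of these lay in the 41 genes. The raw counts ranged from 15 reads of Orc1 to 2021 reads of Pcna in a library. Normalised read counts scaled to library size (CPM) of Tnfrsf1a were 82.2 to 105 in KO libraries and 133 to 162 in WT libraries, and those of Tnfrsf1b were 15.6 to 27.9 in KO libraries and 33.6 to 69.6 in WT libraries. Both targeted genes were thus lower in every KO library, and neither was absent. The label telogen was not matched by the WT controls. Summed CPM of 17 anagen hair follicle markers, which belong to the growing follicle, were 14.7 to 28.2 in KO UVB, 22.5 to 190 in WT UVB, 91.7 to 325 in KO control and 1218 to 3093 in WT control libraries. The part of these marker differences in the results below was not tested.

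After UVB, replication genes were called higher in both genotypes, and none was called lower. In KO UVB against KO control skin, 34 of 41 were called higher and 0 lower, beside 17.2% of all tested genes called higher. In WT UVB against WT control skin, 16 of 41 were called higher and 0 lower, beside 10.2% of all tested genes called higher. The same shares stand beside the counts by role and by promoter word below. Calls needed a p under 0.05 in edgeR's quasi-likelihood test after Benjamini-Hochberg adjustment over all tested genes, and every adjusted p below is from that test. Because whole skin was sequenced, more cells in S phase and more RNA per cell cannot be told apart.

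The rise was moderate in size. The median log2 fold change of the 41 genes was 0.65 in KO skin, against -0.02 for all tested genes, and 0.36 in WT skin, against -0.03 for all tested genes. The called genes rose 1.36-fold to 2.79-fold in KO skin and 1.44-fold to 2.07-fold in WT skin. In KO skin 6 genes passed a fold of 2, Orc1, Mcm10, Rrm2, Tk1, Ccne1 and Ccne2, and in WT skin 3 did, Rrm2, Tk1 and Ccne1. The fold change was above 0 for 41 of 41 genes in KO skin and for 40 of 41 in WT skin, where all tested genes gave 48.5% in KO skin and 46.5% in WT skin. The UVB libraries all lay above the controls of their genotype for 27 genes in KO skin and for 21 genes in WT skin, and the shares for all tested genes were 13.6% in KO skin and 15.1% in WT skin.

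**Figure D1:**
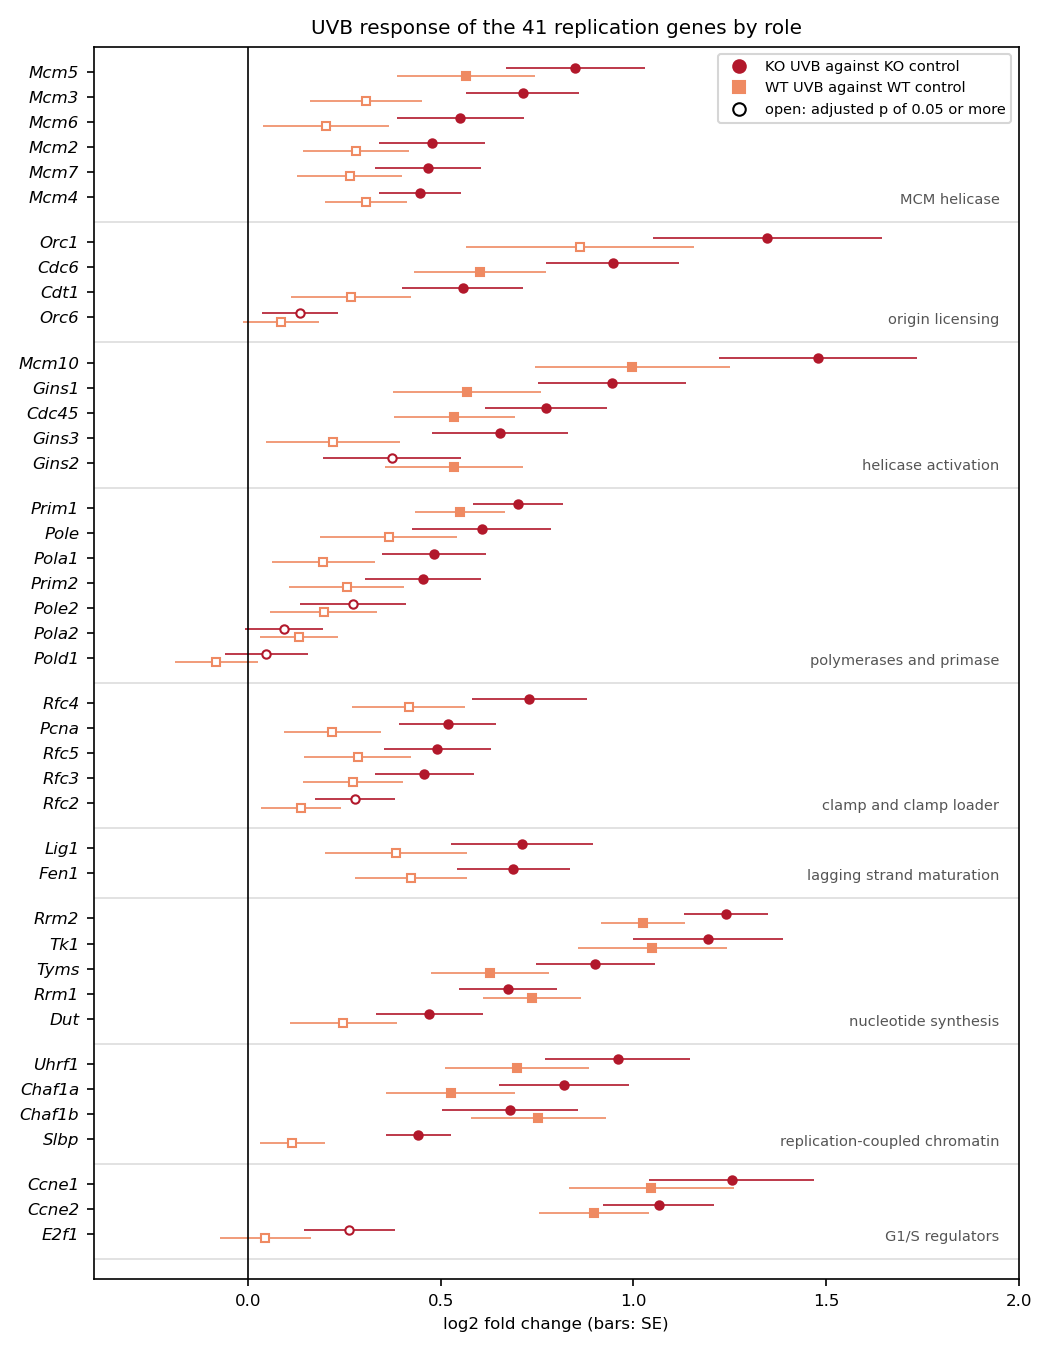
Log2 fold change of each of the 41 genes after UVB, grouped by role, in KO skin (circles) and WT skin (squares), with the SE as bars and open symbols for genes not called. Of the 41 pairs, 37 have the KO value above the WT value, and called genes reach 1.48 in KO skin and 1.05 in WT skin.

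The calls of both genotypes shared 15 genes, Mcm5, Cdc6, Mcm10, Cdc45, Gins1, Prim1, Rrm1, Rrm2, Tyms, Tk1, Chaf1a, Chaf1b, Uhrf1, Ccne1 and Ccne2. These were 93.8% of the genes called in WT skin and 44.1% of those called in KO skin. Gins2 was called in WT and not in KO skin, and 19 genes in KO and not in WT skin. Orc6, Pola2, Pole2, Pold1, Rfc2 and E2f1 were called in neither. Whether the UVB effect differed between genotypes is a separate test, given further below.

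The promoters of these genes were read for E2F-type letters. RefSeq sequence of build GRCm38.p6 gave 39 windows of 250 bases before the start for 34 of the 41 genes. The 5 words searched on both strands were TTTGGCGC, TTTCGCGC, TTTCCCGC, TTTGCCGC and TTCCCGCC, which can overlap each other. At least 1 word was found in 13 of the 39 windows, or 33.3%, against 3.24% of 32851 windows of all genes and 5.13% of 15896 windows of tested genes. Among windows of tested genes with a GC content at or above the 61.2% median of the replication genes, 7.35% held a word. Their own median GC content was 67.6%. The share of replication gene windows above the same cut was not taken, so the 33.3% is not matched to it in GC content. A match is a description of the letters and not a site of binding.

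Promoter windows of 4 genes, chosen to show the strongest matches and a strongly rising gene without one, are printed 5′ to 3′ on the gene's strand, with the matched letters in capitals. Mcm5 (chr8:75109259-75109508, plus strand) and Mcm6 (chr1:128359706-128359955, minus strand) each hold 2 words that overlap across the strands, Orc1 (chr4:108579204-108579453, plus strand) holds 1 close to the start, and Rrm2 (chr12:24708004-24708253, plus strand), among the genes that rose most, holds none of these letters.
Mcm5: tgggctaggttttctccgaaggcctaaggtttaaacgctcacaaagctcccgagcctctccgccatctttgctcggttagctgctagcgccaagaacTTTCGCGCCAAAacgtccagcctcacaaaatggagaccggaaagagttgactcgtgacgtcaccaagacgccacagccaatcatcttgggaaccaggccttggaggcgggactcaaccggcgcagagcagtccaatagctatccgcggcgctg
Mcm6: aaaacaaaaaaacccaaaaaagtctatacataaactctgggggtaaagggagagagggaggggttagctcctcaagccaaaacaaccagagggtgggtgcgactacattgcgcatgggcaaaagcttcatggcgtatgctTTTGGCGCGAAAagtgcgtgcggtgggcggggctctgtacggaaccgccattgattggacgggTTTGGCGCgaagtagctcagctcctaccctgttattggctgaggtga
Orc1: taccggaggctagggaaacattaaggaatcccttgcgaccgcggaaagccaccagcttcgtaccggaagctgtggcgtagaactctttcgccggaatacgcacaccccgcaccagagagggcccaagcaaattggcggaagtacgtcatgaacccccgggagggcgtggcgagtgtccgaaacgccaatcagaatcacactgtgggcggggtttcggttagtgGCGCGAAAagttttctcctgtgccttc
Rrm2: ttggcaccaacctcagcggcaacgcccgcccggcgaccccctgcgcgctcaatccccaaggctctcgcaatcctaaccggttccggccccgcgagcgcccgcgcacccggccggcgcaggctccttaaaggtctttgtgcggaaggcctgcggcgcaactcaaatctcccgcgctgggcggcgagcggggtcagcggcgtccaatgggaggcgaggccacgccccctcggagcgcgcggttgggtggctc

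The words begin 153 and 149 bases before the start in Mcm5, 110, 106 and 47 bases before it in Mcm6, and 27 bases before it in Orc1. The 12 genes with a word were Mcm5, Mcm6, Mcm7, Orc1, Cdc6, Gins3, Pola1, Prim1, Rfc3, Rrm1, Chaf1a and Uhrf1. Of these 12, 12 were called higher in KO UVB skin and 6 in WT UVB skin. Of the 22 genes with a window and no word, 17 were called higher in KO UVB skin and 7 in WT UVB skin. These counts were not tested against each other.

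Among the genes of nucleotide synthesis, 5 of 5 were called higher in KO skin and 4 of 5 in WT skin. Rrm2, the S phase subunit of ribonucleotide reductase, had 37.1, 30.8, 31.7 and 28.1 CPM in KO UVB libraries, against 15.99, 11.6, 12.6 and 13.9 CPM in KO controls. In WT UVB libraries Rrm2 had 32.7, 29.6, 31.0 and 27.3 CPM, against 15.2, 13.3, 16.1 and 14.6 CPM in WT controls. The UVB libraries lay far above the controls, with no overlap, and the log2 fold change was 1.24 ± 0.11 in KO skin (SE, adjusted p = 5.06e-06) and 1.02 ± 0.11 in WT skin (adjusted p = 2.15e-05).

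Tk1, the thymidine kinase of the salvage route, had 27.3, 19.2, 18.6 and 15.98 CPM in KO UVB libraries, against 12.2, 6.99, 7.45 and 8.76 CPM in KO controls. It had 20.6, 18.4, 20.9 and 21.2 CPM in WT UVB libraries, against 10.7, 7.38, 12.1 and 8.87 CPM in WT controls. Tk1 thus rose without overlap in both genotypes, by 1.19 ± 0.19 on the log2 scale in KO skin (adjusted p = 0.000452) and by 1.05 ± 0.19 in WT skin (adjusted p = 0.00161). Rrm1, the large reductase subunit, averaged 71.3 ± 7.36 CPM in KO UVB and 44.7 ± 7.24 CPM in KO control skin (SD, n = 4 each). It averaged 74.8 ± 3.66 CPM in WT UVB and 44.8 ± 8.07 CPM in WT control skin, and is 1 of 4 genes whose rise was smaller in KO skin. Tyms, which makes thymidylate, rose by 0.90 ± 0.15 in KO skin and by 0.63 ± 0.15 in WT skin on the log2 scale. Dut, which clears dUTP, rose in KO skin (0.47 ± 0.14, adjusted p = 0.0175) and was not called in WT skin (0.25 ± 0.14, adjusted p = 0.229).

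**Figure D2:**
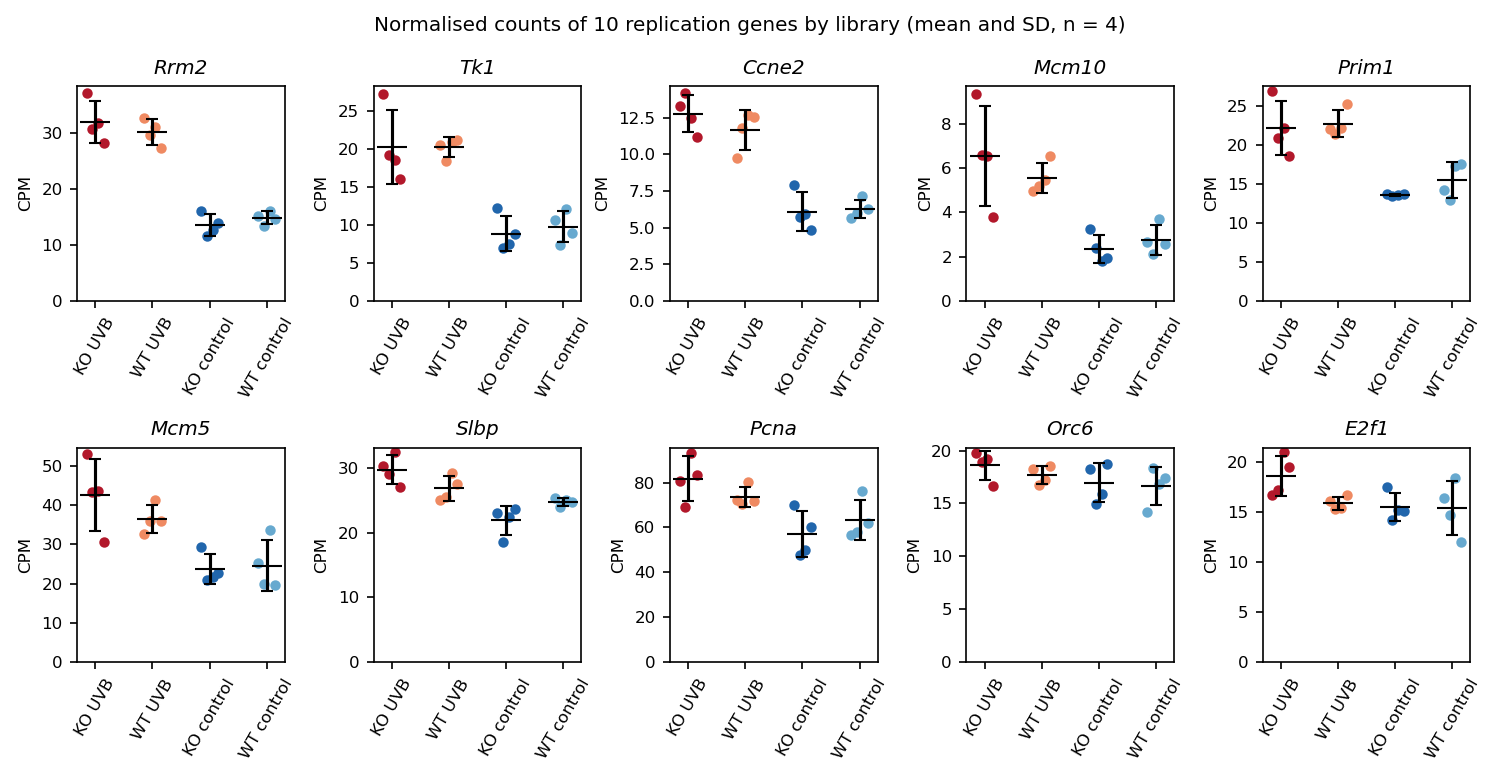
CPM of 10 replication genes in every library (points), with the mean and SD of each group (n = 4). Rrm2, Tk1, Ccne2, Mcm10 and Prim1 have no overlap between the UVB libraries and the controls of either genotype, while Orc6 and E2f1 overlap within each genotype.

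The G1/S regulators split in the same way in both genotypes. Ccne1 and Ccne2 encode cyclin E, which drives entry into S phase. Ccne2 had 13.3, 14.2, 12.5 and 11.2 CPM in KO UVB libraries, against 7.92, 5.72, 5.91 and 4.83 CPM in KO controls, and 9.74, 11.8, 12.7 and 12.6 CPM in WT UVB libraries, against 5.68, 6.01, 7.12 and 6.27 CPM in WT controls. Neither genotype had any overlap, and the log2 fold change was 1.07 ± 0.14 in KO skin (adjusted p = 0.000118) and 0.90 ± 0.14 in WT skin (adjusted p = 0.000543). Ccne1 rose by 1.25 ± 0.21 in KO skin (adjusted p = 0.000614) and by 1.05 ± 0.21 in WT skin (adjusted p = 0.00339). E2f1, a transcription factor of the G1/S switch, was not called in either: it averaged 18.6 ± 2.01 CPM in KO UVB and 15.5 ± 1.42 CPM in KO control skin, and 15.9 ± 0.633 CPM in WT UVB and 15.4 ± 2.69 CPM in WT control skin (adjusted p = 0.0989 in KO skin and 0.824 in WT skin).

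Helicase activation gave 4 of 5 calls in each genotype. Mcm10, which helps to activate the helicase, had 9.36, 6.62, 6.56 and 3.78 CPM in KO UVB libraries, against 3.26, 2.37, 1.81 and 1.94 CPM in KO controls. It had 4.98, 5.22, 5.48 and 6.56 CPM in WT UVB libraries, against 2.68, 2.11, 3.71 and 2.55 CPM in WT controls. The groups did not overlap, although KO UVB 4 lay near the highest KO control, and the log2 fold change of 1.48 ± 0.26 in KO skin (adjusted p = 0.000681) was the largest of the 41 genes, with 0.997 ± 0.25 in WT skin (adjusted p = 0.0128). Cdc45, a part of the moving helicase, rose by 0.77 ± 0.16 in KO skin and by 0.54 ± 0.16 in WT skin. Gins1 rose by 0.94 ± 0.19 in KO skin and by 0.57 ± 0.19 in WT skin, and Gins3 was called in KO skin (0.65 ± 0.18) and not in WT skin (0.22 ± 0.17). Gins2 had the opposite pattern of calls, with 0.37 ± 0.18 in KO skin (adjusted p = 0.122) and 0.53 ± 0.18 in WT skin (adjusted p = 0.0496), with the groups apart in both genotypes, in WT skin by 9.67 CPM in WT UVB 4 against 9.65 CPM in WT control 1.

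The 6 genes of the Mcm2 to Mcm7 ring were called in KO skin, 6 of 6, at log2 fold changes of 0.45 to 0.85. In WT skin 1 of 6 was called, and the 6 values ran between 0.20 and 0.57. Mcm5 had 52.9, 43.2, 43.5 and 30.7 CPM in KO UVB libraries, against 29.2, 20.8, 21.7 and 22.7 CPM in KO controls. It had 32.7, 36.0, 41.2 and 35.9 CPM in WT UVB libraries, against 25.3, 19.8, 33.5 and 19.7 CPM in WT controls. The KO groups were apart by a narrow margin, while WT UVB 1 lay below WT control 3, and the log2 fold change was 0.85 ± 0.18 in KO skin (adjusted p = 0.00262) and 0.57 ± 0.18 in WT skin (adjusted p = 0.0393). Mcm3 rose by 0.71 ± 0.15 in KO skin (adjusted p = 0.00208) and had 0.31 ± 0.15 in WT skin (adjusted p = 0.154). Mcm4 rose by 0.45 ± 0.11 in KO skin, and its WT value of 0.31 ± 0.11 lay just outside the threshold (adjusted p = 0.0563).

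Of the 4 licensing genes, Orc1, Cdc6 and Cdt1 rose in KO skin and Cdc6 in WT skin. Orc1, the largest origin recognition subunit, had 6.22, 3.08, 3.09 and 2.09 CPM in KO UVB libraries, against 1.65, 1.70, 0.799 and 1.497 CPM in KO controls. It had 2.91, 2.85, 3.10 and 2.78 CPM in WT UVB libraries, against 1.74, 1.55, 1.88 and 1.21 CPM in WT controls. The groups were apart in both genotypes, the call was made in KO skin (1.35 ± 0.30, adjusted p = 0.00327), and the WT value was just outside it (0.86 ± 0.30, adjusted p = 0.0533). Cdc6, the loader, rose by 0.95 ± 0.17 in KO skin and by 0.60 ± 0.17 in WT skin. Cdt1, its partner, had 0.56 ± 0.16 in KO skin (adjusted p = 0.0134) and 0.27 ± 0.16 in WT skin (adjusted p = 0.246). Orc6 averaged 18.6 ± 1.38 CPM in KO UVB and 16.96 ± 1.81 CPM in KO control skin, and 17.7 ± 0.825 CPM in WT UVB and 16.7 ± 1.79 CPM in WT control skin, and was not called (adjusted p = 0.307 in KO skin and 0.573 in WT skin).

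Among the 7 polymerase and primase genes, 4 were called in KO skin and 1 in WT skin. Prim1, the catalytic primase subunit, had 26.8, 20.9, 22.2 and 18.5 CPM in KO UVB libraries, against 13.7, 13.4, 13.5 and 13.7 CPM in KO controls. It had 22.0, 21.3, 22.1 and 25.2 CPM in WT UVB libraries, against 14.2, 12.9, 17.3 and 17.5 CPM in WT controls. Prim1 rose without overlap in both genotypes, by 0.70 ± 0.12 in KO skin (adjusted p = 0.000536) and by 0.55 ± 0.12 in WT skin (adjusted p = 0.00427). Pola1, the catalytic subunit of polymerase alpha, Pole, that of polymerase epsilon, and Prim2, the other primase subunit, rose in KO skin at log2 fold changes of 0.48, 0.61 and 0.45. Their WT values were 0.20, 0.36 and 0.26, none of them called. Pola2, Pole2 and Pold1, of which Pold1 is the catalytic subunit of polymerase delta, were called in neither genotype. Pold1 averaged 17.7 CPM in KO UVB and 17.1 CPM in KO control skin, and 16.7 CPM in WT UVB and 17.7 CPM in WT control skin.

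Of the sliding clamp and its loader, 4 of 5 genes were called in KO skin and 0 in WT skin, and of the enzymes that mature the lagging strand, 2 of 2 in KO skin and 0 in WT skin. Pcna, the clamp, had 80.9, 69.1, 93.3 and 83.6 CPM in KO UVB libraries, against 47.9 to 70.1 CPM in the 4 KO controls. The lowest KO UVB library, KO UVB 2, lay just below KO control 1, and the log2 fold change was 0.52 ± 0.13 (adjusted p = 0.00589). In WT skin Pcna averaged 73.6 ± 4.36 CPM after UVB and 63.3 ± 9.03 CPM without it (0.22 ± 0.13, adjusted p = 0.24). Of the loader, Rfc3, Rfc4 and Rfc5 rose in KO skin by 0.46, 0.73 and 0.49 on the log2 scale, and Rfc2 did not pass (0.28 ± 0.10, adjusted p = 0.051). Fen1, the flap nuclease, rose by 0.69 ± 0.15 in KO skin, and had 0.42 ± 0.15 in WT skin (adjusted p = 0.0535). Lig1, the ligase that joins Okazaki fragments, rose by 0.71 ± 0.18 in KO skin and had 0.38 ± 0.18 in WT skin (adjusted p = 0.158).

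The chromatin genes of the fork were called 4 of 4 in KO skin and 3 of 4 in WT skin. Uhrf1, which recruits the maintenance DNA methyltransferase, had 43.9, 30.3, 28.1 and 21.2 CPM in KO UVB libraries, against 18.4, 14.8, 13.7 and 16.6 CPM in KO controls. It had 25.7, 26.0, 28.4 and 25.9 CPM in WT UVB libraries, against 18.0, 12.5, 20.4 and 14.3 CPM in WT controls. Both genotypes had no overlap, and KO UVB libraries spread far more widely than WT UVB libraries (0.96 ± 0.19 in KO skin, adjusted p = 0.00154, and 0.70 ± 0.19 in WT skin, adjusted p = 0.0172). Chaf1a and Chaf1b, subunits of the histone chaperone CAF-1, rose by 0.82 ± 0.17 and 0.68 ± 0.18 in KO skin and by 0.53 ± 0.17 and 0.75 ± 0.18 in WT skin. Slbp, which binds histone mRNA, had 30.3, 29.1, 32.5 and 27.0 CPM in KO UVB libraries, against 23.0, 18.6, 22.4 and 23.6 CPM in KO controls, a rise of 0.44 ± 0.08 (adjusted p = 0.00135). It averaged 26.8 ± 1.87 CPM in WT UVB and 24.8 ± 0.602 CPM in WT control skin (0.11 ± 0.08, adjusted p = 0.364).

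Leaving out 1 library ended some of these calls. In WT skin the number called was 9 without WT control 2 or without WT control 4, and 10 without WT UVB 2 or without WT UVB 3. Without both WT UVB 2 and WT control 1 it was 8. The share of all tested genes called in either direction fell as well, from 18.8% with all libraries. It was 12.8% without WT control 2, 14.3% without WT control 4, 12.9% without WT UVB 2 and 12.1% without WT UVB 3. With WT UVB 2 and WT control 1 both left out it was 7.44%. Prim1, Rrm1, Rrm2, Tyms, Tk1, Chaf1b, Ccne1 and Ccne2 held their WT calls in all 27 alternatives. Mcm5, Cdc6, Cdc45 and Chaf1a lost theirs without WT control 1, 2 or 4 or without WT UVB 2, 3 or 4, and Uhrf1 without WT control 2 or 4. Gins1 and Gins2 lay closest to the threshold, and lost the call in 16 and 13 of the 27. In KO skin 25 of the 34 calls were lost in no alternative that tested them, which were 26 for Orc1, Mcm10 and Gins3, left out by a mean count of at least 100, and 27 for the others. Single libraries ended the calls of Mcm2 and Dut (KO control 2), Mcm6 (KO control 2 or 3, or KO UVB 1), Mcm7 (KO control 3 or KO UVB 1), Rfc5 (KO control 3), Pole (KO UVB 1), and Prim2 (KO control 2, 3 or 4, or KO UVB 1 or 3).

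The UVB effect was not shown to differ between genotypes for any of the 41 genes. In the test of the difference, taken as KO effect less WT effect, edgeR called 0 of 41, beside 0.0228% of all tested genes. Slbp alone had an unadjusted p under 0.05 in edgeR (a difference of 0.33 ± 0.12, adjusted p = 0.275), where 12.8% of all tested genes did. DESeq2 called 0, with 1 gene at an unadjusted p under 0.05, and limma voom called 0, with 7. The direction leaned to KO skin: 37 of 41 differences were above 0, as were 52.6% of all tested genes, and the median was 0.22, against 0.02 for all tested genes. Gins2, Pola2, Rrm1 and Chaf1b were the exceptions.

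The differences ran between -0.16 and 0.49, and the 95% interval held 0 for 40 of 41 genes. For Mcm10 it ran between -0.28 and 1.24, for Rrm2 between -0.11 and 0.54, and for Mcm3 between -0.03 and 0.84. Such intervals hold a larger rise in KO skin as well as none, and SEs were 0.12 to 0.42. Without KO UVB 4 the median difference was 0.32, with 6 genes at an unadjusted p under 0.05, and without KO UVB 1 it was 0.13, with 1 such gene. No gene was called in either case.

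Without UVB, the replication genes leaned lower in KO skin, with 0 of 41 called in KO control against WT control, beside 1.69% of all tested genes. The fold change was above 0 for 6 of 41 genes, against 50.6% of all tested genes, and the median was -0.13. Without WT control 3 the median was -0.02, with 17 of 41 above 0. At an unadjusted p under 0.05 edgeR and DESeq2 each had 2 genes, limma voom had 5, and all tested genes gave 10.9%.

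Mcm6 showed the largest difference between unexposed genotypes. It had 38.8, 22.9, 24.5 and 29.5 CPM in KO controls, against 45.5, 37.8, 53.4 and 34.5 CPM in WT controls, where KO control 1 lay above WT control 2 and 4. The log2 fold change was -0.57 ± 0.17 (adjusted p = 0.129). Mcm6 was called lower by limma voom (adjusted p = 0.0146), with library totals in place of TMM (0.0462) and without KO control 1 (0.0302), and its adjusted p was at or over 0.05 in the other alternatives. Cdc45 was the other gene at an unadjusted p under 0.05 (-0.35 ± 0.16, adjusted p = 0.427). Of the 41 genes 2, Slbp and Pole, were lower in all KO controls than in any WT control, a share near the 4.63% of all tested genes, at -0.18 ± 0.08 for Slbp (adjusted p = 0.462) and -0.24 ± 0.18 for Pole (adjusted p = 0.737).

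After UVB, no difference between KO and WT skin was called. In KO UVB against WT UVB 0 of 41 genes were called, beside 0.856% of all tested genes, and 0 had an unadjusted p under 0.05 in edgeR or DESeq2, where edgeR gave 16.3% of all tested genes. Limma voom called 0, with 4 at an unadjusted p under 0.05. The fold change was above 0 for 33 of 41 genes, against 51.8% of all tested genes, with a median of 0.12. Without KO UVB 1 the median was 0.01, and without KO UVB 4 it was 0.19, with 7 genes at an unadjusted p under 0.05. Of the 41 genes 1, E2f1, was higher in all KO UVB libraries than in any WT UVB library, beside 4.27% of all tested genes, at 0.23 ± 0.12 (adjusted p = 0.348).

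**Figure D3:**
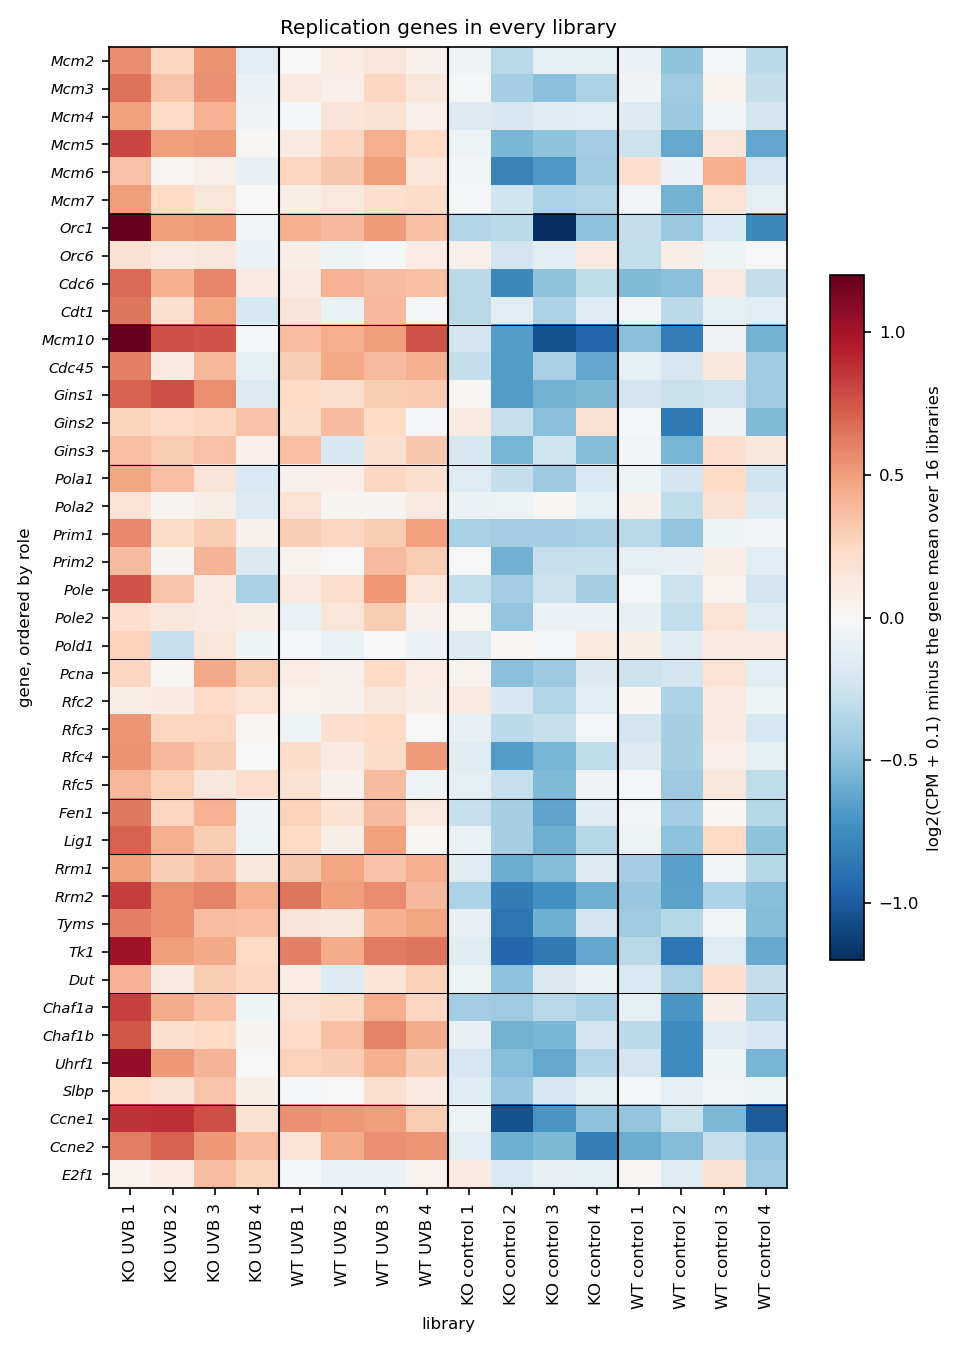
Log2(CPM + 0.1) of the 41 genes in each of the 16 libraries, minus the gene's mean over all libraries; rows are ordered by role and columns by group. UVB libraries are mostly above the mean and controls below it, KO UVB 1 is the highest of its group in 32 genes, and KO UVB 4 the lowest of its group in 34.

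Within each group the 41 genes shared their high and low libraries. KO UVB 1 was the highest KO UVB library in 32 of 41 genes and KO UVB 4 the lowest in 34. WT control 3 was the highest WT control in 33 genes and WT control 2 the lowest in 27. KO control 1 was the highest KO control in 27 genes and KO control 2 the lowest in 26. WT UVB libraries differed least, with a median coefficient of variation of 7.66% over the genes, where KO UVB had 15.8%, KO control 14.3% and WT control 15.5%. The summed CPM of the 41 genes averaged 927 ± 122 in KO UVB, 868 ± 38.7 in WT UVB, 612 ± 67.6 in KO control and 663 ± 92.2 in WT control libraries (SD, n = 4 each). The lowest UVB library of each genotype, 781 in KO UVB 4 and 840 in WT UVB 1, stood above the highest control of its genotype, 698 in KO control 1 and 785 in WT control 3.

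Markers of other cell types also differed between the groups, and their part in the results was not tested. Summed CPM of 7 basal keratinocyte markers were 15987, 12345, 9960.2 and 6757 in KO UVB libraries 1 to 4, 8911 to 11473 in WT UVB, 5137 to 8728 in KO control and 4679 to 7871 in WT control libraries. KO UVB 1 was highest and KO UVB 4 lowest here too. For replication and basal sums alike, WT control 3 was highest and WT control 2 lowest of their group. WT UVB 3 was likewise highest and WT UVB 1 lowest of theirs. KO control 1, the highest KO control for the replication genes, was instead the lowest for the basal markers. Of the 7, Krt5 and Krt14 were called higher and Krt15 lower in each genotype after UVB, and Col17a1, Itga6, Itgb4 and Trp63 were not called. The 5 suprabasal markers summed to 14999 to 48145 CPM in KO UVB and 22506.5 to 29597.5 in WT UVB libraries. In KO control libraries the suprabasal sums were 6871 to 11424, and in WT control libraries 5713 to 7429. KO control 1 was again the lowest of its group. In KO UVB, WT UVB and WT control, the highest and lowest libraries were the same as for the replication sums. The 5 wound keratinocyte markers summed to 1216 CPM in KO UVB 4 and to 5389.9 to 5962 CPM in the other KO UVB libraries, against 1006 to 1391 in WT UVB, 601 to 863 in KO control and 677 to 913 in WT control libraries.

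Outside the keratinocytes, 5 of 6 skeletal muscle markers were called lower in KO skin after UVB and 1 of 6 in WT skin. Their summed CPM were 6927 to 13211 in KO UVB, 8004 to 12746 in WT UVB, 16307 to 27522 in KO control and 9095 to 18301 in WT control libraries. KO UVB 1 was lowest and KO UVB 4 highest, and WT control 3 lowest and WT control 2 highest, the reverse of the replication sums. KO control 1 was highest and KO control 2 lowest, as for the replication sums. WT UVB 1 was highest and WT UVB 4 lowest. Of 5 tested neutrophil markers, 5 were called higher in KO skin and 1 in WT skin, with sums of 36.8 to 366 CPM in KO UVB, 17.98 to 47.9 in WT UVB, 10.6 to 31.7 in KO control and 11.8 to 16.5 in WT control libraries, the highest being KO UVB 3, and Ly6g, the marker not tested, was at 0 in every WT UVB and every WT control library. Of 5 T cell markers, 3 were called lower in each genotype, with sums of 9.64 to 31.3 CPM in KO UVB, 16.1 to 29.8 in WT UVB, 28.4 to 42.5 in KO control and 32.9 to 56.1 in WT control libraries. Of 5 sebaceous gland markers 3 were called higher and of 7 melanocyte markers 2 were called lower in each genotype. The melanocyte fold change was above 0 for 5 of 7 in WT skin and 3 in KO skin, with medians of 0.05 and -0.10. Of 6 dermal fibroblast markers 2 were called lower in KO skin and 0 in WT skin. Of all tested genes, 17.2% were called higher and 15.1% lower in KO skin, and 10.2% and 8.60% in WT skin.

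**Figure D4:**
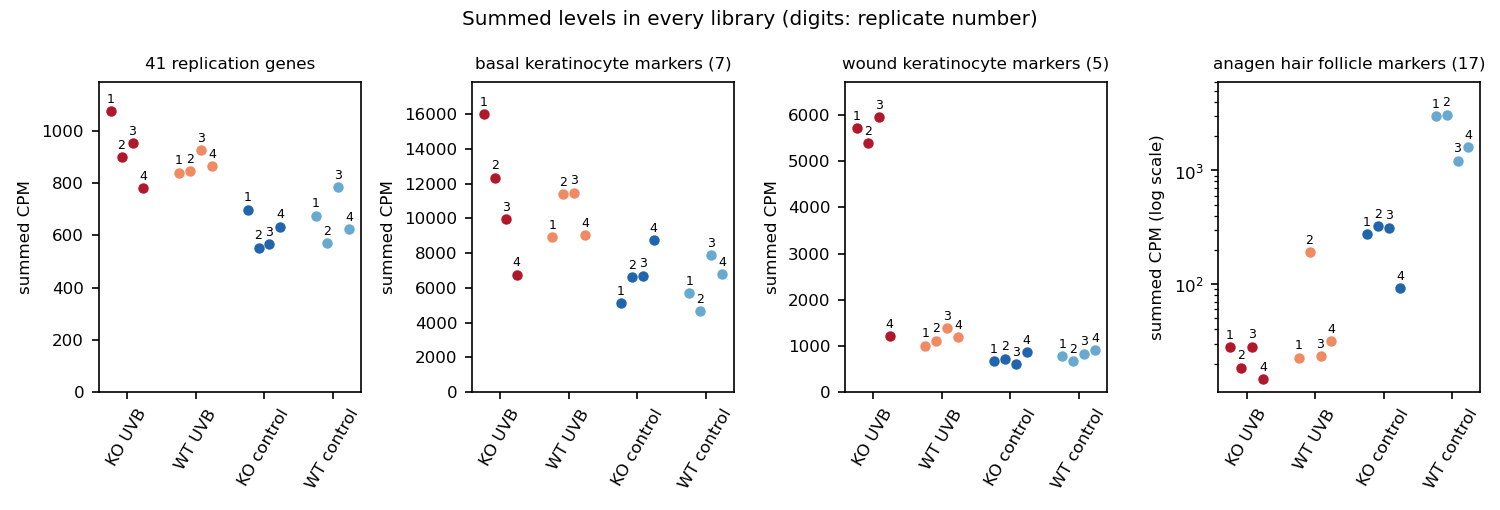
Summed CPM of the 41 genes and of 3 marker lists in every library, with the replicate number at each point; the anagen panel has a log axis. KO UVB 4 is the lowest KO UVB library in all 4 panels, and the WT controls hold the highest anagen sums, 1218 to 3093.

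Compared per length, in CPM per kilobase of exon, Pcna stood at 34.1 ± 4.14 in KO UVB, 30.7 ± 1.82 in WT UVB, 23.8 ± 4.27 in KO control and 26.4 ± 3.76 in WT control skin, the highest of the 41. Mcm4, at 10.99 ± 1.74, 9.63 ± 0.612, 8.06 ± 0.148 and 7.79 ± 0.895 in the same order of groups, was next in the mean over all libraries, although Rrm2 lay above it in KO UVB, Rrm2 and Mcm6 in WT UVB, and Mcm6 in WT control skin. Rrm2 had 11.52 ± 1.35, 10.9 ± 0.820, 4.88 ± 0.684 and 5.34 ± 0.417, so that its mean lay above those of Mcm3 to Mcm7 after UVB and below them in control skin. Over all libraries Mcm4, Mcm6, Mcm7, Rrm2, Mcm5 and Mcm3 held ranks 2 to 7, with means of 7.89 to 9.12, and neighbours in this order differed by less than the SD of Mcm6 in KO UVB skin, 1.25. Mcm10 was lowest, at 0.855 ± 0.296 in KO UVB, 0.723 ± 0.0903 in WT UVB, 0.305 ± 0.0849 in KO control and 0.359 ± 0.0883 in WT control skin. The length used is the union of exons over all isoforms, which can exceed the length of the transcripts present. Rrm1 averaged more CPM than each of Mcm3 to Mcm7 in every group, and lay below each of them per kilobase. The order was not tested with other lengths, so it holds for the union length alone.

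Other genes of the pathway were read in the same fit. Of 36 other replication machinery genes, 24 were called higher and 0 lower in KO skin, and 9 higher and 0 lower in WT skin, with medians of 0.38 and 0.20. All tested genes were called higher in 17.2% of cases in KO skin and 10.2% in WT skin, and lower in 15.1% and 8.60%. Gmnn, the inhibitor of Cdt1, rose by 1.17 ± 0.15 in KO skin and by 0.54 ± 0.14 in WT skin. Dbf4, the activator of the Cdc7 kinase, rose by 1.27 ± 0.16 in KO skin and had 0.38 ± 0.16 in WT skin (adjusted p = 0.116), a difference of 0.89 ± 0.23 that was not called (adjusted p = 0.165). Rpa2, of the single-strand binding complex, had 0.32 ± 0.10 in KO skin (adjusted p = 0.0227) and 0.19 ± 0.10 in WT skin (adjusted p = 0.207). Rnaseh2b, a subunit of the nuclease that removes RNA from DNA, rose by 0.81 ± 0.10 in KO skin and by 0.38 ± 0.10 in WT skin, and was the only one of the 36 called between unexposed genotypes (-0.50 ± 0.10 in KO control against WT control, adjusted p = 0.0134).

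Of 25 other genes of nucleotide metabolism, 11 were called higher and 1 lower in KO skin, and 2 higher and 0 lower in WT skin, with medians of 0.26 and 0.04. All tested genes were called higher in 17.2% of cases in KO skin and 10.2% in WT skin, and the WT count is under that share. Nme1, a nucleoside diphosphate kinase, rose by 1.29 ± 0.14 in KO skin and by 0.66 ± 0.14 in WT skin. Ctps, which makes CTP, and Shmt1, of folate metabolism, rose by 0.72 ± 0.14 and 0.63 ± 0.15 in KO skin, and had -0.01 ± 0.14 and 0.28 ± 0.15 in WT skin, neither called. The WT calls were Nme1 and Gmps (0.25, adjusted p = 0.0245), which makes GMP. Rrm2b, the p53-inducible reductase subunit, fell by 0.37 ± 0.09 in KO skin (adjusted p = 0.00587) and had -0.16 ± 0.09 in WT skin (adjusted p = 0.23), while Rrm2 rose in both.

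Of 30 other G1/S regulators, 11 were called higher and 4 lower in KO skin, and 8 higher and 3 lower in WT skin. All tested genes were called higher in 17.2% of cases in KO skin and 10.2% in WT skin. They were called lower in 15.1% and 8.60%, and the lower counts of the 30 genes lie near those shares. Ccna2, cyclin A2, rose by 1.46 ± 0.24 in KO skin and by 0.97 ± 0.23 in WT skin. Cdkn1a, which encodes the cell cycle inhibitor p21, averaged 296 ± 25.4 CPM in KO UVB and 153 ± 17.8 CPM in KO control skin, and 322 ± 17.5 CPM in WT UVB and 153 ± 13.8 CPM in WT control skin (adjusted p = 1.66e-05 in KO skin and 6.9e-06 in WT skin). Tfdp1, the partner of E2F proteins, rose by 0.56 ± 0.08 in KO skin and by 0.33 ± 0.08 in WT skin. Among the cyclins D, Ccnd1 was called in neither genotype, and Ccnd2 fell by 0.77 ± 0.16 in KO skin and had -0.28 ± 0.16 in WT skin (adjusted p = 0.227). Cdkn1c, the inhibitor p57, fell by 1.16 ± 0.21 in WT skin (adjusted p = 0.00129), had -0.32 ± 0.21 in KO skin (adjusted p = 0.256), and was lower in KO control than in WT control skin (-0.94 ± 0.21, adjusted p = 0.0277). It was the only one of the 30 called between unexposed genotypes. The other genes called lower were Rb1 in KO skin, and Rbl2 and Cdkn1b in both genotypes, at log2 fold changes of -0.27 to -0.36; Rb1 and Rbl2 belong to the retinoblastoma family that restrains E2F, and Cdkn1b encodes the inhibitor p27.

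Of 12 other chromatin genes of replication, 9 were called higher in KO skin and 3 in WT skin, which were Asf1b, Hat1 and Hells. Asf1b, a histone chaperone, rose by 1.33 ± 0.19 in KO skin and by 0.60 ± 0.19 in WT skin, and Hat1, a histone acetyltransferase, by 0.68 ± 0.09 and 0.52 ± 0.09. Atad2 rose in KO skin (0.51 ± 0.09) and had 0.15 ± 0.09 in WT skin. Of 12 replication checkpoint genes, 3 were called higher in KO skin, Chek1 and Brca1 among them, and 2 in WT skin, Fancd2 among them. These counts lie near the shares of all tested genes called higher, 17.2% in KO skin and 10.2% in WT skin. The median log2 fold change of the 12 checkpoint genes was 0.11 in KO skin and -0.002 in WT skin. Chek1, the checkpoint kinase, and Brca1, of fork protection, rose by 0.94 ± 0.24 and 0.92 ± 0.23 in KO skin, and had 0.59 ± 0.24 and 0.59 ± 0.22 in WT skin, neither called there.

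Mitosis genes had the highest median of the 6 related lists. Of 22, 21 were called higher in KO skin and 21 in WT skin, beside 17.2% and 10.2% of all tested genes. The median log2 fold change was 1.31 in KO skin and 0.997 in WT skin. Top2a, the topoisomerase that untangles chromosomes, rose by 1.42 ± 0.23 in KO skin and by 1.02 ± 0.23 in WT skin. Birc5, Cdc20 and Cdca8, which act in chromosome segregation, rose by 1.60, 1.53 and 1.499 in KO skin and by 1.17, 1.26 and 1.22 in WT skin. Mki67, the proliferation marker, averaged 142 ± 48.5 CPM in KO UVB and 58.8 ± 12.2 CPM in KO control skin, and 135 ± 8.10 CPM in WT UVB and 73.5 ± 24.1 CPM in WT control skin. The summed CPM of the 22 genes were 451 to 817 in KO UVB, 596 to 618 in WT UVB, 217 to 394 in KO control and 231 to 395 in WT control libraries, and KO UVB 1 and KO UVB 4 were again the highest and lowest of their group. The lists were compared by counts and medians alone, and the difference between them was not tested.

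**Figure D5:**
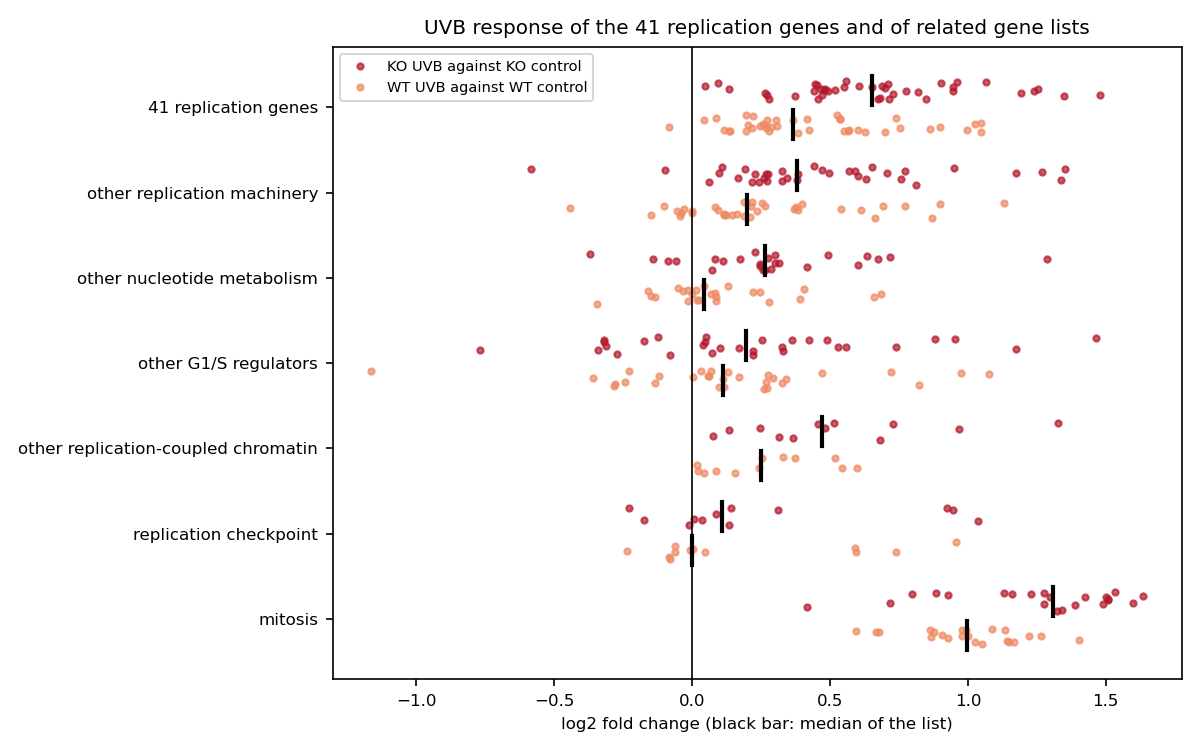
Log2 fold changes after UVB of the 41 genes and of 6 related lists, in KO skin and WT skin, with each gene a point and each list's median a black bar. Medians of the mitosis list are 1.31 in KO skin and 0.997 in WT skin, against 0.65 and 0.36 for the 41 genes, and the other lists have lower medians.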

How the data were processed

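The submitters' processing notes name STAR and the build GRCm39. The STAR version and the annotation release were not given in the sources used here. Per the labels' protocols, libraries were poly(A)-enriched and directional. The deposited values are raw read counts per gene in each library, and the reverse-strand column was used (94.7 to 96.1% of stranded reads). Lines for unmapped, ambiguous and no-feature reads (10.7 to 19.5%, 1.18 to 1.42% and 7.25 to 10.2% of reads) stayed out of library sizes. A combined table's 17 value columns were not used. Symbols came from GENCODE M21 names, which matched 52083 of 55359 IDs.

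Counts were fitted with edgeR 4.0.16 in R 4.3.3 (robust quasi-likelihood, TMM, filterByExpr) as 1 model of 4 groups with 5 contrasts. P-values were Benjamini-Hochberg adjusted over 17531 genes. Fold changes are those of the fit with its implied SE, and CPM are TMM-normalised. Alternatives were DESeq2 1.42.0, limma 3.58.1 voom with quality weights, other scalings and filters, unstranded counts, a replicate block, libraries left out, and the 2 groups alone. The fit was tested on simulated data, in which 100 genes were raised in KO UVB by each of 2 sizes. In KO UVB against KO control it called 30% of those with a true log2 change of 0.5 and 80% of those with 1. Of its calls 2.65% were false. The simulation changed far fewer genes than the 5666 called in KO skin, so these shares need not hold for the data. For the 7 replication genes not called in KO skin, the 95% intervals of the log2 fold change reached at most 0.755. A change of 1 thus lay outside all of them, and a change of 0.5 lay within some. For the 25 not called in WT skin the intervals reached up to 1.49. The 24 pairs of libraries within groups differed beyond counting noise, so all were counted as separate libraries. Exon lengths are unions over GENCODE M21 isoforms.

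All 41 genes could be named, those with the smallest adjusted p within a role in full. From each related list the 3 called genes with the smallest adjusted p in KO UVB against KO control were named, and always Rrm2b, Cdkn1a, Mki67, Top2a, Ccna2, Ccnd1, Ccnd2, Gmnn and Rpa2; some results under this rule are not reported here; Cdkn1c, Cdkn1b, Rb1, Rbl2, Gmps, Hells and Fancd2 were named after their values were seen. Genes and lists were chosen with earlier results of these data known.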

Additional observations from a re-analysis of the deposited data

Results flagged for a closer look

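Of 164 sets of 4 values, 1 for each of the 41 genes in each group, 4 had a library far from the other 3. The rule would flag 1 in 20 independent sets by chance. These sets come from the same 16 libraries and are not independent, so their count was not compared with that rate. Gins1 had 4.86 CPM in KO control 1, where the next KO control had 3.27 CPM. Prim2 had 10.3 CPM in WT control 3, where the next WT control had 9.05 CPM. Pold1 had 15.6 CPM in WT control 2, where the next WT control had 18.1 CPM. Uhrf1 had 28.4 CPM in WT UVB 3, where the next WT UVB library had 26.0 CPM. The same libraries were often the extreme of their group: KO control 1 was highest in 27 of the 41 genes, WT control 3 highest in 33, WT control 2 lowest in 27 and WT UVB 3 highest in 23.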

How the results depend on the processing

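No fold change of a called replication gene changed sign under the 27 alternatives. Of 1346 such values 1261 kept the call and 85 lost it. For WT UVB against WT control, where 16 genes were called, leaving out 1 library gave 9 to 20 and leaving out WT UVB 2 with WT control 1 gave 8. For KO UVB against KO control, where 34 were called, leaving out 1 library gave 30 to 36 and every other setting 31 to 36. For KO control against WT control, where 0 were called, limma voom gave 1, library totals gave 1, and leaving out 1 library gave 0 to 1. KO UVB against WT UVB and the difference of the UVB effects gave 0 throughout. Requiring a mean count of at least 100 left 38 of the 41 genes.

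With library totals in place of TMM the median of all tested genes was -0.09 in KO skin and -0.12 in WT skin, and called genes were 40.5% higher ones in KO skin and 34.2% in WT skin, against 53.1% and 54.2% with TMM. The replication genes then had 33 calls in KO skin and 12 in WT skin, all higher. Over all genes the number called ran between 3506 and 7528 in KO skin, with 5666 in the fit reported, and between 1316 and 5117 in WT skin, with 3290 in the fit reported. The causes of these changes were not tested.

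The labels number libraries 1 to 4 in each group and do not say that a number pairs them. Same-numbered libraries correlated at -0.40 to 0.22 in their deviations from the group means, and at most 1 of 4 pairs in any comparison passed 0.1, so the numbers were not taken as pairs. With the replicate number as a block, 34 genes were called in KO UVB against KO control, 14 in WT UVB against WT control, and 0 in the other 3 comparisons. At most 1 library in a comparison correlated best with its own number.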
